A study of Homo sapiens with 8 samples.

Results

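Oligosaccharyltransferase (OST) is the endoplasmic reticulum complex that attaches N-glycans to proteins, and the data described here are the transcript counts of 9 of its subunits, RPN1, RPN2, DDOST, STT3A, STT3B, DAD1, OSTC, TMEM258 and MAGT1. The members were found by Ensembl transcript identifier in GENCODE version 44. They were 9 of 62639 genes and 77 of 252562 transcripts, of which 42 had at least 1 count. The set was chosen by a measured result, the difference in RPN2 isoform shares between the groups compared here, so the values of RPN2 are a description and carry no test.

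The libraries came from MOLM-13, a human acute myeloid leukemia cell line, carrying a doxycycline (dox)-inducible short hairpin RNA. There were 4 biological replicates with shPTBP1, directed against the splicing factor PTBP1, and 4 with shSCR, a scrambled control that the labels name shControl. All 8 had 9 days of dox, and the constructs of both groups also carried mCherry and ΔLNGFR. The study describes 1 shRNA per group, so other differences between the 2 cell populations and loss of PTBP1 cannot be told apart, and p values measure the spread between these 4 and 4 libraries only.

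In N-glycosylation a sugar chain is first built on the lipid dolichol, and OST then moves it in one step to an asparagine of a protein entering the endoplasmic reticulum. STT3A and STT3B are the alternative catalytic subunits. STT3A complexes sit at the Sec61 translocon and act while the protein is being made, and STT3B complexes act on sites that were missed. RPN1, RPN2, DDOST, DAD1 and TMEM258 are shared by both kinds of complex, OSTC belongs to the STT3A complex and MAGT1 to the STT3B complex. PTBP1 binds pyrimidine-rich RNA and is known for holding exons out of messenger RNA.

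The libraries held between 1528449 and 1613342 counts. PTBP1 was at 9.88 ± 3.55 CPM (counts per 1000000 counts of the library, scaled by the TMM method, with SD, n = 4) with shPTBP1 and at 47.5 ± 7.81 with shSCR, a log2 fold change of -2.26 (edgeR quasi-likelihood test, Benjamini-Hochberg adjusted p = 7.18e-05). PTBP2, the paralog of PTBP1, was at 124 ± 5.44 CPM against 1.45 ± 0.814. Of 8 myeloid markers, PTPRC, CD33, MPO, LYZ and HOXA9 passed the filter on low counts. FLT3 had 53 counts, MEIS1 22 and SPI1 1 count over the 8 libraries. The markers of other cell types COL1A1, EPCAM, ALB, CD3E and HBB did not pass the filter, with 17 counts of COL1A1, 3 of EPCAM, 1 of ALB, and 0 of CD3E and HBB. With bulk RNA, fewer cells of a type and less RNA per cell cannot be told apart.

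The isoforms of RPN2 differed by a 48-base exon near the 3′ end of the gene. RPN2 (ribophorin II, ENSG00000118705) lies on the plus strand of chromosome 20 in hg38. The exon, at chr20:37238402-37238449, is exon 17 of the 18 exons of RPN2-209 and lies between introns of 1692 and 2858 bases. RPN2-209 (ENST00000705448, 3166 bases) and RPN2-202 (ENST00000373622, 2348 bases) hold it. RPN2-201 (ENST00000237530, 2227 bases) joins the exons on either side of it across an intron of 4593 bases. The exon and the 100 bases of intron on each side are shown because the groups differed in the share of counts on transcripts with this exon. They were read 5′ to 3′ from hg38, with the exon in capitals. In the intron after the exon, capitals mark the single match to the letters CTCTCT.

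intron before, chr20:37238302-37238401: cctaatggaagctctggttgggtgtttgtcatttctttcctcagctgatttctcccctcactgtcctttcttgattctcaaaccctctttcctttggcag
exon, chr20:37238402-37238449: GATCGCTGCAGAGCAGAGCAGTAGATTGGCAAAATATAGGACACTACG
intron after, chr20:37238450-37238549: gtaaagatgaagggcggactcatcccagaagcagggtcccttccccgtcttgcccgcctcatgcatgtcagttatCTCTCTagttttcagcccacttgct

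The letters TCTTC and CTCTCT, both pyrimidine motifs, were searched on the transcript strand in these windows, and the same windows were read beside 173363 internal exons of the annotation. Of the 100 bases before the RPN2 exon, 70 are C or T, where the median window has 55, and 3.51% of all windows reach that many. Of the 100 bases after it, 59 are C or T, where the median is 50 and 15.66% of windows reach that many. TCTTC is absent from both windows, and is present in 21.09% of windows before exons and 13.26% of those after. CTCTCT is absent before the exon and present 1 time after it, and is found in 9.0% and 4.51% of such windows. These letters describe the sequence and do not show binding.

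The exon is coding and its length is 16 codons, so the exon by itself keeps the reading frame. The annotated coding sequences of RPN2-201, RPN2-209 and RPN2-202 have 631, 654 and 615 codons with no stop inside the frame. RPN2-202 also lacks a 96-base exon at chr20:37198397-37198492, which RPN2-201 and RPN2-209 have. The last exon of RPN2-209 begins 5 bases after that of the other 2 transcripts, which is not a whole number of codons, so RPN2-209 reads its last exon in another frame than RPN2-201 and RPN2-202 do. The next sequence shows the end of the last intron and the first bases of the last exon of RPN2-201, with those 5 bases in capitals.

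last acceptor, chr20:37241288-37241315: tccattttctttcagAACAGcacattag

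RPN2-209 and RPN2-202 also have longer first exons than RPN2-201, 951 and 209 bases against 40, and begin 911 and 169 bases upstream of it. A molecule with the 96-base exon, the 48-base exon and the upstream acceptor has no transcript of its own in the annotation. Whether a read was given to RPN2-209 or to RPN2-202 can therefore not be settled from these counts, and their sum, which is the count of transcripts holding the 48-base exon, was used. The exon was not counted in the reads themselves. Both transcripts also differ from RPN2-201 at the 5′ end, so transcript counts alone cannot tell which of these features changed.

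**Figure D1:**
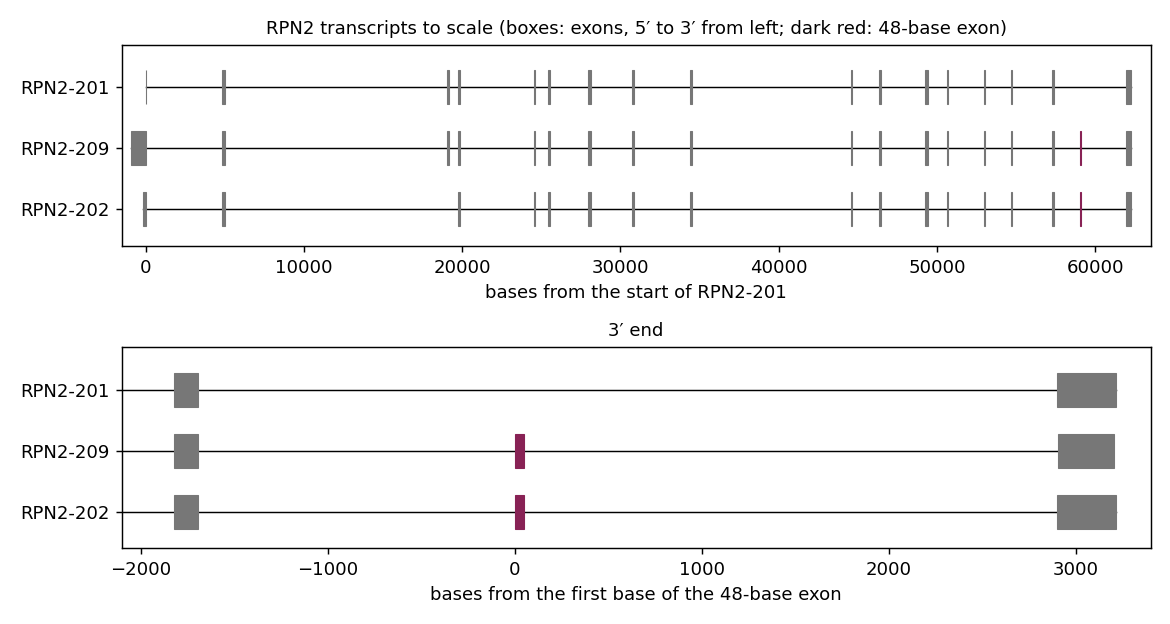
Exons (boxes) and introns (lines) of the 3 most counted RPN2 transcripts, to scale, with the x axis in bases from the start of RPN2-201 (above) and from the first base of the 48-base exon (below). The 48-base exon, in dark red, is present in RPN2-209 and RPN2-202 and absent from RPN2-201.

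A large part of RPN2 counts held the exon with shPTBP1 and a small part with shSCR. With shPTBP1 the exon was held by 764 of 2509, 720 of 2565, 728 of 2389 and 764 of 2447 RPN2 counts in replicates 1 to 4, or 30.5%, 28.1%, 30.5% and 31.2%. With shSCR it was held by 99 of 3109, 128 of 3589, 88 of 2693 and 102 of 2884, or 3.18%, 3.57%, 3.27% and 3.54%. The lowest shPTBP1 library lay far above the highest shSCR library, and within each group the libraries were close to each other. Over the libraries of a group, the exact binomial 95% intervals together covered 26.3% to 33.1% with shPTBP1 and 2.60% to 4.28% with shSCR. These intervals cover counting error only, since amplified cDNA molecules are not independent. The means were 30.1% ± 1.37 and 3.39% ± 0.191 (SD, n = 4 each), a difference of 26.7 percentage points and a ratio of 8.87.

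The shares of counts assigned to each transcript with the exon were higher with shPTBP1, though the split between them is unsettled, as said above. RPN2-209 took 19.6%, 17.0%, 18.6% and 19.1% of RPN2 counts with shPTBP1 and 2.06%, 2.31%, 2.08% and 2.39% with shSCR. RPN2-202 took 10.8%, 11.0%, 11.8% and 12.1% against 1.13%, 1.25%, 1.19% and 1.14%. RPN2-201, the main transcript in every library, took 68.7%, 71.2%, 68.6% and 68.1% against 96.0%, 95.5%, 96.1% and 95.9%. For none of the 3 transcripts did the groups overlap. The same held for 7.57% of 11341 transcripts of at least 5% in either group, in genes with a mean of at least 20 counts. The 3 shares are parts of 1 gene total and RPN2 was chosen for their difference, so they are not separate observations. Within the counts that held the exon, RPN2-209 made up 61.9% ± 1.77 with shPTBP1 and 65.2% ± 1.72 with shSCR, and the ranges of the groups overlapped (60.7% to 64.5% against 63.6% to 67.6%).

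In level, transcripts with the exon were at 482 ± 5.79 CPM with shPTBP1 and 66.6 ± 10.3 CPM with shSCR (SD, n = 4), and transcripts that skip it at 1123 ± 64.7 and 1893 ± 212 CPM. The first was 415 CPM higher and the second 770 CPM lower. RPN2 as a whole was thus 355 CPM lower. RPN2 summed to 2509, 2565, 2389 and 2447 counts with shPTBP1 and to 3109, 3589, 2693 and 2884 with shSCR. Every shSCR library was above every shPTBP1 library after scaling (1796 to 2285 CPM against 1567 to 1695), with shSCR replicate 2 the highest. The log2 fold change of RPN2 was -0.29 (SE 0.07).

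In the fit over all transcripts, 61 of 5464 tested, or 1.12%, were called for a change of share (edgeR diffSpliceDGE adjusted p under 0.05 and at least 10 percentage points), in 46 genes. The rule that chose RPN2 used this contrast, so no test result is given for its transcripts. The transcript shares that followed the RPN2 exon most closely over the 8 libraries were those of ZC3H14-221, SKP2-211 and ZFAS1-204 (Pearson r 0.997, 0.997 and 0.994 among 6519 transcripts compared). The lowest r, -0.995, -0.995 and -0.994, belonged to SEH1L-201, PDLIM7-202 and ZFAS1-205. All these points share the same 8 libraries and the same 2 groups, so a likeness of pattern cannot be told apart from the difference between the groups. SKP2-211, for example, took 21.5% ± 2.26 of SKP2 counts with shPTBP1 and 0.216% ± 0.431 with shSCR, and PDLIM7-202 took 42.3% ± 5.26 of PDLIM7 counts against 87.1% ± 2.32.

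At the level of whole genes, none of the 8 subunits other than RPN2 was called between the groups. Their edgeR adjusted p ranged from 0.211 to 0.931, DESeq2 also called 0, and 2 of the 8 (RPN1 and DAD1) had an unadjusted p under 0.05. Of all 7597 genes tested, 5.54% were called in either direction, 179 higher (2.36%) and 242 lower (3.19%). All 9 members passed the filter on low counts. Counting RPN2, 6 members had a log2 fold change below 0 and 3 above it, with a median of -0.04, where the median of all genes tested was -0.00014. RPN2 was the single member whose groups did not overlap, as was the case for 12.7% of all genes tested.

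**Figure D2:**
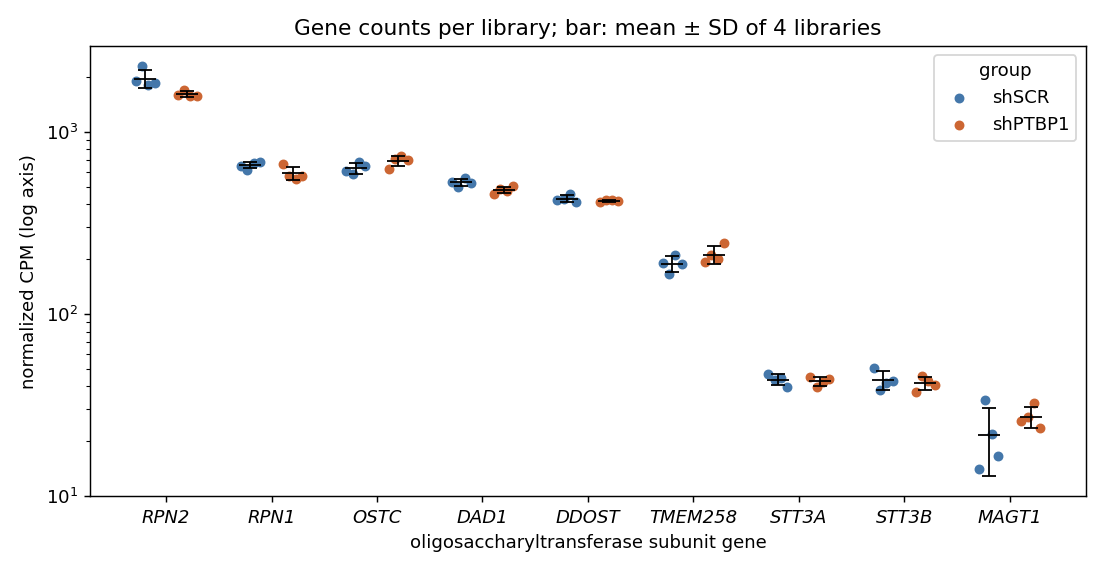
TMM-scaled CPM (log axis) of the 9 OST subunit genes in each library, with the mean and SD of 4 libraries per group. The groups overlap for every subunit but RPN2, and STT3A, STT3B and MAGT1 lie below 60 CPM.

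Among the catalytic subunits, STT3A had 71, 60, 64 and 69 counts with shPTBP1 and 76, 68, 67 and 62 with shSCR. STT3B had 59, 69, 65 and 64 against 82, 60, 63 and 67. The groups overlapped for both genes, with the highest STT3B value in shSCR replicate 1. The log2 fold change was -0.03 for STT3A (95% interval -0.27 to 0.21, edgeR adjusted p = 0.931) and -0.06 for STT3B (-0.33 to 0.21, adjusted p = 0.849). These intervals hold the changes compatible with the counts and are not a limit of detection. An absent call therefore does not mean no change. Without shSCR replicate 1 both log2 fold changes turned to 0.01 and 0.02, and without shPTBP1 replicate 2 that of STT3A was 0.0037, all without a call. Exons of STT3A overlap those of CHEK1 on the same strand and of ENSG00000288907 on the opposite strand, which had 493 and 88 counts over the 8 libraries beside 537 of STT3A, so reads in the shared bases are uncertain.

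Of the shared subunits, RPN1 (ribophorin I), which holds substrates near the catalytic site, had 1049, 861, 841 and 898 counts with shPTBP1 and 1061, 973, 1007 and 1061 with shSCR. Replicate 1 of shPTBP1 lay among the shSCR libraries and the other 3 below them. RPN1 had a value of -0.15 on the log2 scale (SE 0.07, adjusted p = 0.239 by edgeR), and without shPTBP1 replicate 1 the value was -0.21 (adjusted p = 0.0573). DAD1, a small membrane subunit first known as a defender against cell death, had 723, 732, 716 and 785 counts against 867, 784, 838 and 815. Its groups met at one point, where shPTBP1 replicate 4 (503 CPM) was above shSCR replicate 2 (499 CPM), and its log2 ratio came to -0.14 (SE 0.06, adjusted p = 0.211 by edgeR).

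DDOST, the subunit also known as OST48, had 649, 640, 642 and 653 counts with shPTBP1 and 686, 672, 683 and 644 with shSCR. It had the narrowest interval of the members (log2 fold change -0.04, 95% interval -0.16 to 0.09, edgeR adjusted p = 0.793). TMEM258, a small membrane subunit, had 303, 317, 305 and 384 counts against 310, 260, 315 and 294. Its log2 fold change was 0.17 (-0.03 to 0.37, edgeR adjusted p = 0.353) with shPTBP1 replicate 4 above the other 7 libraries. Without that library the value was 0.09 (adjusted p = 0.695) and without shSCR replicate 2 it was 0.11 (adjusted p = 0.588).

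OSTC and MAGT1, each of a single kind of complex, had values above 0 that were not called. OSTC, which ties the STT3A complex to the translocon, had 990, 1067, 1114 and 1097 counts with shPTBP1 and 986, 921, 1026 and 1006 with shSCR (log2 fold change 0.13, 95% interval -0.01 to 0.28, edgeR adjusted p = 0.308). The 3 higher shPTBP1 libraries lay above all shSCR libraries and replicate 1 among them. MAGT1, the oxidoreductase subunit of the STT3B complex, had 41, 41, 49 and 37 counts against 23, 53, 33 and 26. It was the least counted member, the highest and the lowest library were both shSCR libraries, and the interval of its log2 fold change of 0.33 was the widest (-0.18 to 0.85, edgeR adjusted p = 0.500). Without shSCR replicate 2 the value was 0.63 (adjusted p = 0.116) and without shSCR replicate 1 it was 0.17 (adjusted p = 0.762).

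Per kilobase of transcript, RPN2 was the highest member in the shSCR libraries, at 848 ± 95.9 CPM per kb, and its range overlapped that of DAD1 at 773 ± 36.1. OSTC followed at 596 ± 41.0, then RPN1 at 288 ± 11.9, DDOST at 204 ± 8.70 and TMEM258 at 147 ± 14.2 CPM per kb, each with a range apart from its neighbours. STT3B at 10.6 ± 1.24 and STT3A at 10.4 ± 0.697 CPM per kb overlapped, and MAGT1 at 5.68 ± 2.29 was the lowest. With shPTBP1 the order was DAD1 at 700, RPN2 at 695 and OSTC at 654 CPM per kb, whose ranges overlapped, and the order of the others was kept except that STT3A and STT3B, both at 10.2, changed places. If a count stands for 1 molecule whatever its length, division by length lowers long transcripts too far. That was not tested for these counts, which StringTie made from amplified cDNA. Without the division, RPN2 stood apart at 1960 CPM with shSCR, with RPN1 at 656, OSTC at 630 and DAD1 at 528. With shPTBP1, RPN2 was at 1605 CPM, OSTC at 692, RPN1 at 590 and DAD1 at 479. The closeness of RPN2 and DAD1 per kilobase thus comes from the division. The count-weighted lengths of STT3A, STT3B and MAGT1 were 4.18, 4.10 and 3.81 kb, and those of the other 6 members were at most 2.31 kb. Whether fewer long molecules were read from end to end was not tested.

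For each of the other 8 subunits the transcript with the highest mean share was the same in both groups. Of the transcripts with a mean share of at least 5% of their gene in either group, 15 belonged to members other than RPN2. Of the transcripts of these members at any share, 11 of 4 members (RPN1, DDOST, OSTC and TMEM258) could be tested in the fit over all transcripts. Of these, 0 were called by diffSpliceDGE (1.12% of all tested were), with the lowest adjusted p at 1.00, and 0 by limma's diffSplice. The largest difference among these 11 was 3.86 percentage points, for TMEM258-204, which took 17.9% ± 1.84 of TMEM258 counts with shPTBP1 and 21.7% ± 3.93 with shSCR. The transcripts of STT3A, STT3B, DAD1 and MAGT1 had too few counts, or no second transcript with enough, for that fit.

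**Figure D3:**
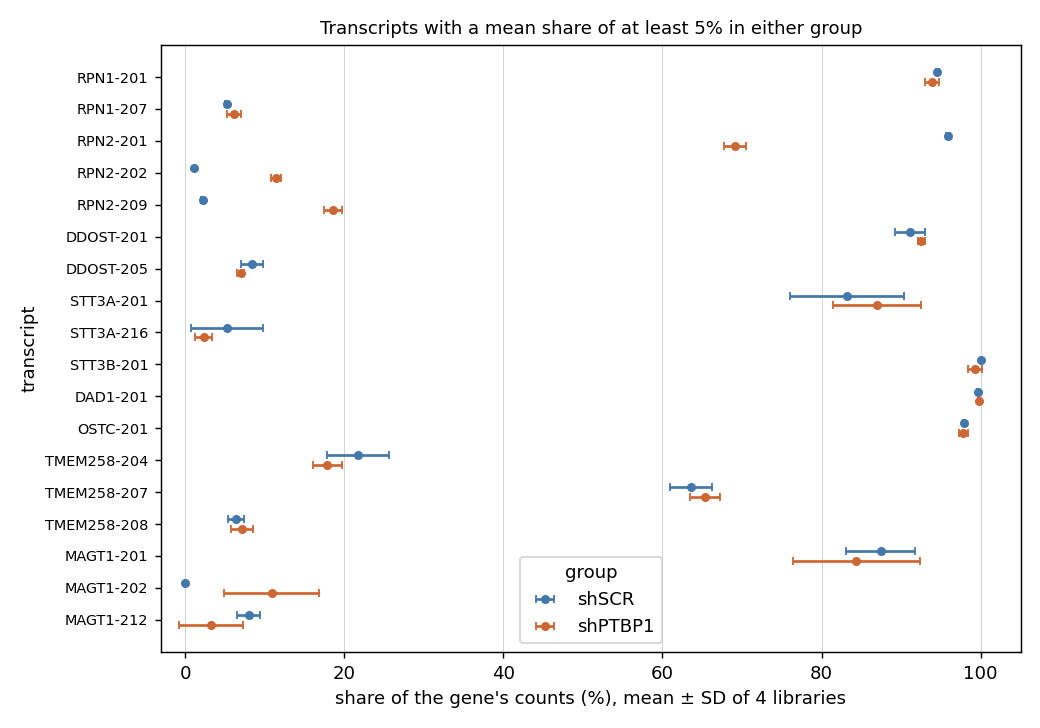
Share of its gene's counts (percent, mean and SD of 4 libraries) for each member transcript with a mean share of at least 5% in either group. The 3 RPN2 transcripts lie apart between the groups, MAGT1-202 is at 0 in shSCR, and most other pairs lie close together.

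A single transcript carried 93.9% ± 0.868 of RPN1 counts with shPTBP1 (RPN1-201, 94.5% ± 0.225 with shSCR), 92.5% ± 0.424 of DDOST (DDOST-201, 91.1% ± 1.90), 97.8% ± 0.558 of OSTC (OSTC-201, 97.9% ± 0.147), 99.8% ± 0.135 of DAD1 (DAD1-201, 99.6% ± 0.138) and 99.2% ± 0.871 of STT3B (STT3B-201, all counts in the 4 shSCR libraries). STT3A-201 took 87.0% ± 5.50 against 83.2% ± 7.21 and MAGT1-201 took 84.3% ± 7.97 against 87.4% ± 4.36, both with few counts. TMEM258 was the most divided of these genes. TMEM258-207 took 65.4% ± 1.88 of its counts against 63.6% ± 2.62, and the 4 TMEM258 transcripts annotated for nonsense-mediated decay together took 16.2% ± 0.474 against 14.1% ± 1.95 (two-sided exact permutation p = 0.0857).

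The groups did not overlap for 2 of those 15 transcripts, DDOST-205 and MAGT1-202. Among 11341 transcripts of at least 5% in either group, in genes with a mean of at least 20 counts, 7.57% did not overlap. DDOST-205, a coding transcript with 11 exons and a shorter coding sequence than DDOST-201 (1317 against 1368 bases), had 48, 43, 47 and 42 counts with shPTBP1 and 53, 70, 54 and 48 with shSCR. Its shares were 7.40%, 6.72%, 7.32% and 6.43% against 7.73%, 10.4%, 7.91% and 7.45%. The nearest libraries of the groups were thus almost level, and shSCR replicate 2 stood above the rest. The means, 6.97% ± 0.468 and 8.38% ± 1.37, are a description, since the transcript was picked for groups that do not overlap, and it was not called in the fit over all transcripts.

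MAGT1-202 (ENST00000373336, chromosome X, 77868108 to 77895440 in GRCh38) is a short coding transcript of 4 exons that ends 41744 bases before MAGT1-201 along the gene and has a coding sequence of 402 bases against 1005. It had 4, 8, 3 and 3 counts with shPTBP1 and 0 in all 4 shSCR libraries. Pooled, this is 18 of 168 MAGT1 counts or 10.7% with shPTBP1, and 0 of 135 with shSCR. By library, the shPTBP1 shares ran from 6.12% to 19.5%. Amplified cDNA molecules are not independent, so the pooled counts are a description and carry no interval. Of the 18 counts, 8 came from shPTBP1 replicate 2. The comparison rests on few molecules. MAGT1-202 reached a mean share of 5% only with shPTBP1, so no p is given for it. MAGT1-202 was below the filter of the fit over all transcripts and so has no adjusted p.

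The genes around OST in the N-glycosylation pathway were mostly not called. Of 52 genes in 4 lists, 44 passed the filter, 2 were called higher, 4 lower and 38 neither. Among all 7597 genes tested, 179 were called higher (2.36%) and 242 lower (3.19%). These are smaller shares than those of the 44, a difference that was not tested. The median log2 fold change of the 44 was -0.07. Of 3 further OST subunits, KRTCAP2 had a log2 fold change of -0.09 (edgeR adjusted p = 0.553) and OST4 of -0.08 (adjusted p = 0.593). TUSC3, the alternative to MAGT1, had 0 counts in every library.

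**Figure D4:**
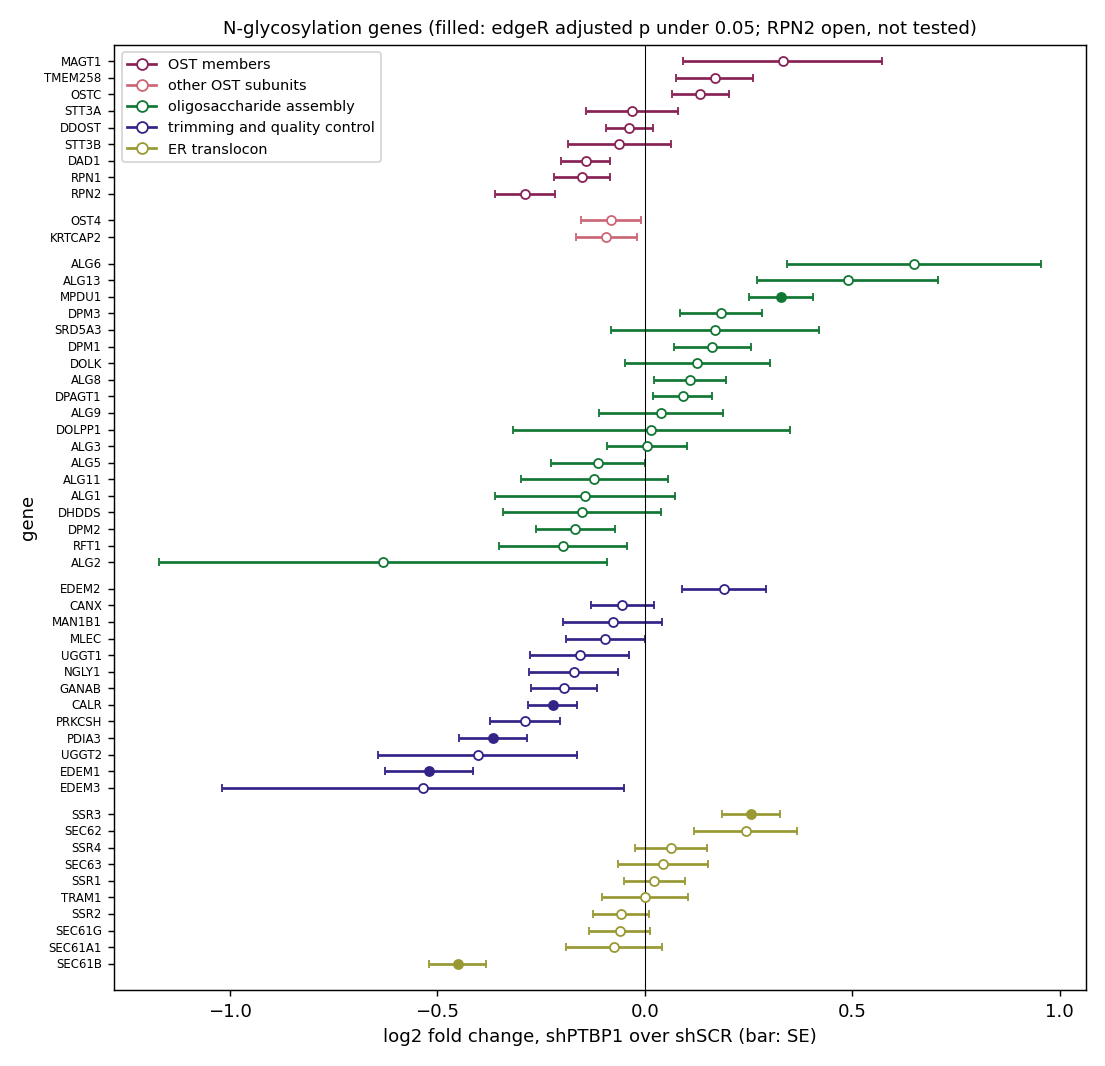
Log2 fold change of shPTBP1 over shSCR with its SE for the 9 OST members and the 44 tested genes of the 4 pathway lists. Filled points (edgeR adjusted p under 0.05) are MPDU1 and SSR3 above 0 and CALR, PDIA3, EDEM1 and SEC61B below 0. RPN2 is drawn open because no test result is given for it, so its open point does not show an absent call.

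Of the 24 genes that build and flip the sugar chain on dolichol, 19 were tested and 1 was called, beside 5.54% of all genes. The median log2 fold change was 0.04, and the called gene rose. This gene, MPDU1, is needed for use of the dolichol-bound sugar donors, and was at 167 ± 10.1 CPM with shPTBP1 and 133 ± 8.32 CPM with shSCR (log2 fold change 0.33, SE 0.08, edgeR adjusted p = 0.0268). Its groups did not overlap, as was the case for 12.7% of all genes tested. Those of ALG13 did not overlap either, and ALG13 was not called (edgeR adjusted p = 0.239). The MPDU1 call was lost without shPTBP1 replicate 2, 3 or 4 (adjusted p = 0.0523, 0.0909 and 0.0767) and without shSCR replicate 1 or 4 (0.0728 and 0.0672).

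Of the 14 genes that trim the attached glycan and check folding, 13 were tested and 3 were called, beside 5.54% of all genes. All 3 fell, and the median log2 fold change of the 13 was -0.19. EDEM1, which helps send misfolded glycoproteins to degradation, was at 136 ± 11.0 CPM against 194 ± 29.6 (log2 fold change -0.52, SE 0.10, edgeR adjusted p = 0.0128). PDIA3, a disulfide isomerase that works with the lectin chaperones, was at 192 ± 17.7 CPM against 248 ± 18.0 (-0.37, SE 0.08, adjusted p = 0.0208). CALR (calreticulin), one of those chaperones, was at 1151 ± 59.2 CPM against 1342 ± 70.1 (-0.22, SE 0.06, adjusted p = 0.0434). The groups did not overlap for any of the 3, as was the case for 12.7% of all genes tested. Those of PRKCSH did not overlap either, and PRKCSH was not called (edgeR adjusted p = 0.0682). EDEM1 was called whichever single library was left out. The PDIA3 call was lost without shPTBP1 replicate 1 or 2 (adjusted p = 0.0504 and 0.0729) or shSCR replicate 2 or 4 (0.0543 and 0.0620), and that of CALR without any 1 of the 8 libraries (0.0565 to 0.110).

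Of the 11 translocon genes, 10 were tested (median 0.01). Called were 1 that rose and 1 that fell, beside 2.36% and 3.19% of all genes. SEC61B, a small subunit of the Sec61 channel, was at 276 ± 17.2 CPM with shPTBP1 and 377 ± 21.5 CPM with shSCR (log2 fold change -0.45, SE 0.07, edgeR adjusted p = 0.00222) and was called whichever library was left out. SSR3, a subunit of the translocon-associated protein complex, was at 501 ± 45.3 CPM against 419 ± 11.4 (0.26, SE 0.07, adjusted p = 0.0492). The groups did not overlap for SEC61B or SSR3, as was the case for 12.7% of all genes tested. The SSR3 call was lost without any 1 library except shPTBP1 replicate 1 (edgeR adjusted p = 0.0619 to 0.159).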

How the data were processed

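Total RNA of MOLM-13 cells was turned into cDNA with nanopore kits (SQK-PCS109 and SQK-PBK004) and sequenced on a PromethION instrument. The authors mapped reads to hg38 with minimap2, kept those with a mapping quality above 50, and used StringTie for a count per annotated transcript. Versions and annotation are not given in the sources used here. The deposited counts are whole numbers without normalization. A second table named TPM was not used.

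Of 254070 transcripts listed, 252562 were matched to GENCODE version 44 by identifier, and the others held 0.0876% to 0.1151% of the counts of a library. Transcript counts were summed per gene, scaled by TMM and tested with edgeR 4.0.16 (quasi-likelihood test, group as the only term, filterByExpr with a minimum count of 10), with Benjamini-Hochberg adjustment over all 7597 genes tested and calls at an adjusted p under 0.05. A 95% interval of a log2 fold change comes from the same fit. Shares are a transcript's count over that of its gene, tested with diffSpliceDGE over 5464 transcripts of 2163 genes (adjusted p under 0.05 and at least 10 percentage points). Levels per kilobase are CPM over the count-weighted transcript length. The scripts were tested on simulated data. The authors used DESeq2 for genes and IsoformSwitchAnalyzeR for isoforms, and the second was not used here.

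Groups and replicate numbers came from the sample titles. The genes and transcripts named are the 9 members, their transcripts of at least 5%, the called genes of the pathway lists, PTBP1, PTBP2 and the 3 transcripts most and least correlated with the RPN2 exon share among those with a mean share of 10% to 90%. KRTCAP2, OST4, TUSC3, ALG13, PRKCSH and the markers are named with the lists or counts they belong to. One marker of another cell type is not reported here. The members, lists and tests were chosen with earlier results of these data known. RPN2 has no p because it was chosen on this contrast.

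The alternatives were DESeq2 1.42.0, its size factors in edgeR, no filter, a mean of at least 50 counts, the replicate number as a block, and each library left out. For isoforms they were diffSplice of limma 3.58.1, minimum changes of 5 and 20 percentage points and a mean of at least 10 counts. The software was Python 3.11.15 (matplotlib 3.10.9, scipy 1.17.1, pandas 2.3.3, numpy 2.4.6) and R 4.3.3.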

Additional observations from a re-analysis of the deposited data

Results flagged for a closer look

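Among 56 groups of 4 libraries compared for a member or a member transcript, 3 held a library far from the other 3, where chance gives about 1 in 20. RPN2 in shPTBP1 replicate 2 was at 1695 CPM and the other 3 shPTBP1 libraries at 1567 to 1587. DDOST-205 in shSCR replicate 2 took 10.4% of DDOST counts and 7.45% to 7.91% in the others. DAD1-201 in shPTBP1 replicate 1 took 100% of DAD1 counts and 99.7% in each of the others, a gap of a few counts.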

How the results depend on the processing

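For RPN2 no test result is given. Of the 8 other subunits, none was called under any of 13 alternatives, of which MAGT1 was in 12, since it was below a mean of 50 counts. Of the transcripts of these 8 subunits that were tested, none was called under 13 alternatives. Those of STT3A, STT3B, DAD1 and MAGT1 were not in the main test. The RPN2 log2 fold change was between -0.31 and -0.28 under other settings and between -0.33 and -0.21 with 1 library left out. The difference in RPN2 exon share was 26.7 percentage points, between 26.3 and 27.3 with 1 library left out, and 19.0 when only the 2 most used transcripts were compared, which leaves out RPN2-202. Of the 44 pathway genes tested, 6 were called, 4 lower and 2 higher, beside 5.54% of all genes. The number lower was 2 to 3 with 1 library left out, the number higher 0 to 2 and the total 2 to 4. Under other settings the number lower was 3 to 5, the number higher 1 to 2 and the total 4 to 7. The total of 7 came with a mean of at least 50 counts. With the replicate number as a block, 1 was higher, since SSR3 (adjusted p = 0.0875) lost its call, as did CALR (0.0686). CALR also lost it without the filter (0.0553). Replicates of the same number did not deviate together (correlations across genes between -0.0328 and 0.00889), so the numbers were not read as pairs. With 23 to 82 counts per library, MAGT1, STT3A and STT3B had wide intervals, so an absent call does not mean no change.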
